A study of Mus musculus with 6 samples.

Results

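Mouse miRNAs are numbered in the order in which they entered the miRBase catalogue, so a high number marks an entry made late, mostly from deep sequencing of small RNAs. The miRNAs described here are the late-numbered ones that gave a signal in the liver of mice treated with carbon tetrachloride (CCl4) or with corn oil. They were chosen by name and by reading: a number above that of miR-3072, without miR-3082, and a total signal that the scanner software flagged as detected on at least 1 of 6 arrays. The array held 287 such miRNAs among 1247 mouse miRNAs. A signal was detected for 44 of the 287, and 365 mouse miRNAs were detected in all. Since detection chose the 44, their being detected is not a result.

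Male C57BL/6 mice received intraperitoneal injections 2 times a week for 10 weeks, starting at 7 weeks of age. The CCl4 group (n = 3 livers) was given 0.6 mL/kg of CCl4, a solvent that is toxic to hepatocytes and is used to bring about liver fibrosis, in corn oil, and the control group (n = 3 livers) was given corn oil alone. Total RNA of each liver was labeled with Cy3 and hybridized to 1 array. A single slide held the 6 arrays, CCl4 in row 1 and corn oil in row 2, so treatment and place on the slide cannot be told apart.

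A miRNA is cut from a hairpin precursor by the enzymes Drosha and Dicer, and either arm of the hairpin (5p or 3p) can be loaded into an Argonaute protein. The seed, bases 2 to 8 of the mature RNA, pairs with target mRNAs. Short fragments of other RNAs, such as tRNAs, rRNAs and repeat transcripts, are also found in small RNA libraries, and catalogue entries are revised as such cases are recognized. An array sees a miRNA through probes that pair with its 3′ end, so that RNAs sharing that end can bind to the same probe.

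Mature sequences were taken from the RefSeq miRNA table (GRCm38.p6), which matched 28 of the 44. Those of the 4 brightest miRNAs, of miR-5119, which passed the limma threshold between the groups, and of 3 G-rich miRNAs are printed 5′ to 3′, with the seed in capitals.
miR-6366: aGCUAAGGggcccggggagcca
miR-3963: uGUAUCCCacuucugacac
miR-5100: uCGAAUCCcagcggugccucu
miR-3968: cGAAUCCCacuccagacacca
miR-5119: cAUCUCAUccuggggcugg
miR-5126: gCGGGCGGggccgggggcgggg
miR-6538: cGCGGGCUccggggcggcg
miR-6368: cUGGGAAGcaguggaggggag
None of these 8 seeds was shared with another detected miRNA that had a sequence. Only miR-3473b and miR-3473e had a seed in common, GGCUGGA.

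The brightest members carried most of the signal of every array. The total signal is the background-subtracted intensity that the scanner software sums over the probes of a miRNA, and it is given unscaled unless stated otherwise. Of the signal of all detected miRNAs, the 44 held 76.7, 77.4 and 74.8% with corn oil and 74.0, 74.7 and 62.0% with CCl4. Every CCl4 array lay under every corn oil array, but replicates 1 and 2 of the CCl4 group lay within 1 percentage point of the lowest of them and replicate 3 lay far lower. The 4 brightest, miR-6366, miR-3963, miR-5100 and miR-3968, held between 72.4 and 74.9% with corn oil and between 59.7 and 71.2% with CCl4. The other 40 together held between 2.44 and 2.47% and between 2.31 and 3.73%. Intensity depends on the probe as well as on the RNA, so these shares are shares of signal and not of molecules.

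**Figure D1:**
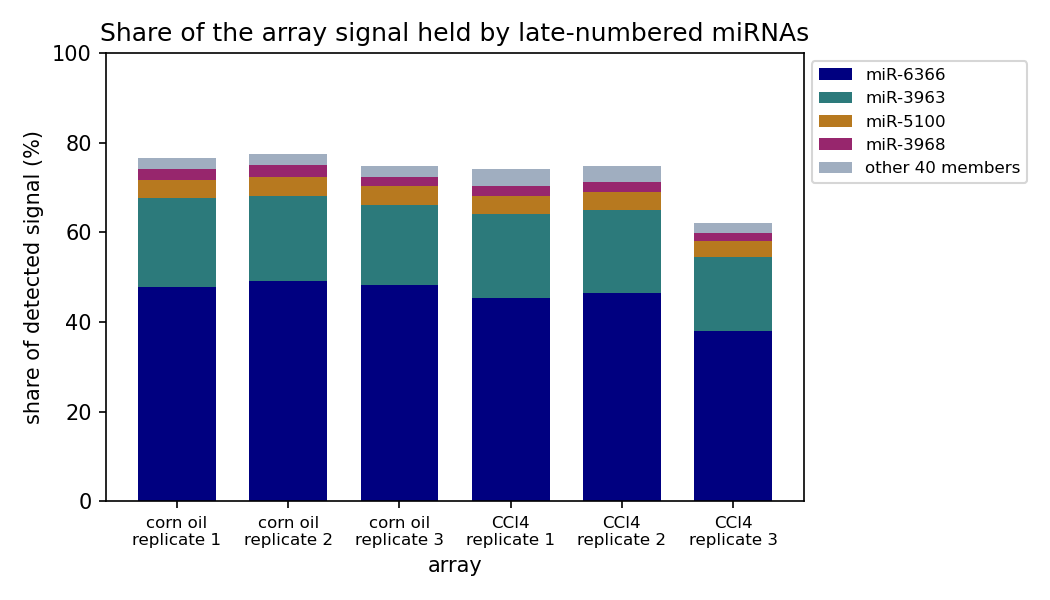
Share of the summed signal of detected miRNAs (%, vertical axis, from 0) held by the late-numbered miRNAs on each of the 6 arrays, stacked by miRNA with the other 40 in gray. The stacks of the corn oil arrays reach between 74.8 and 77.4%, and CCl4 replicate 3 stands lowest at 62.0%.

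miR-6366, whose gene lies in no other gene of the RefSeq table, was the brightest miRNA on every array. It read 84784, 83302 and 80969 with corn oil and 80254, 80986 and 120339 with CCl4. CCl4 replicate 1 was below the corn oil arrays, replicate 2 lay next to the lowest of them, and replicate 3 was above all others. Its share of the array signal was 48.4% ± 0.64 (SD, n = 3) with corn oil and 43.2% ± 4.55 with CCl4. The shares did not overlap, and the exact two-sided permutation test gave p = 0.1, the smallest value that 3 livers against 3 can give.

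miR-3963 was next on every array, at 35100, 32103 and 29873 with corn oil and 33581, 32463 and 51801 with CCl4. Its share was 18.8% ± 1.01 and 17.97% ± 1.40, which overlapped (exact permutation p = 0.5). miR-5100, within Mief2, a gene for a protein of the outer mitochondrial membrane, read 7279, 7347 and 7123 with corn oil and 7017, 6901 and 11490 with CCl4. Its share was lower on every CCl4 array, at 3.85% ± 0.19 against 4.23% ± 0.11 (exact permutation p = 0.1). miR-3968, within Trim80, read 4353, 4383 and 3520 with corn oil and 3799, 3883 and 5369 with CCl4, and its shares overlapped (exact permutation p = 0.3). In all 4 the totals overlapped between the groups, and CCl4 replicate 3 was the highest array. miR-122-5p, the most abundant miRNA of hepatocytes, read between 16613 and 18345 with corn oil, and 13110, 15544 and 2158 with CCl4.

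Shares did not overlap between the groups for 10 of the 27 members that were detected on all 6 arrays, 37% of them, against 55.4% of the 166 miRNAs detected on all arrays. The 7 that were higher with CCl4 are read against 47.6% of the 166, and the 3 that were lower, miR-6366, miR-5100 and miR-6368, against 7.83%. A share falls when the rest of the array rises, and the summed signal of detected miRNAs was 316413 on CCl4 replicate 3 against 167865 to 177351 on the other 5 arrays. The differences in share, CCl4 minus corn oil, were -5.15 percentage points for miR-6366, -0.87 for miR-3963 and -6.03 for all 44, and without CCl4 replicate 3 they were -2.54, -0.065 and -1.92.

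Of the 4 brightest, 3 have a run of bases in common. The run AUCCCA, in capitals, was read on the RNA strand only.
miR-3963: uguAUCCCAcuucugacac
miR-3968: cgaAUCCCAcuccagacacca
miR-5100: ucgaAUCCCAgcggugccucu
miR-3968 and miR-5100 share 9 bases, CGAAUCCCA, and miR-3963 and miR-3968 share 8, AUCCCACU. The run AUCCCA is in 3 of the 28 members with a sequence, in 0 of the 117 other miRNAs with a sequence that were detected on all arrays, and in 7 of the 1679 mature sequences of the table (0.417%). As background, runs of this kind are known from the T arm of tRNAs. Whether tRNA fragments bind to these probes was not tested. The seeds of the 3 miRNAs overlap with the run but differ from each other.

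A second set of members has a longer run in common, GAGAUGGCU, again read on the RNA strand and printed in capitals.
miR-3473a: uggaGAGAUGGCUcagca
miR-3473b: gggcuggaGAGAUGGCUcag
miR-3473e: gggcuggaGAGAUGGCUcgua
miR-5128: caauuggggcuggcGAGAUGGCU
These 4 are the only ones of the 1679 sequences that hold it (0.238%), and all of them were detected on at least 1 array. Their genes lie within 4 different genes, Syap1, Ccdc162, Rbks and Strbp. miR-3473b and miR-3473e share 18 bases and miR-3473a and miR-3473b share 16. Binding of 1 of them to the probes of another is therefore possible, and their signals may not be independent readings. This was not tested. The probes of miR-3473b read between 36.2 and 268, and those of miR-3473e at most 5.90. As background, such a run is known from the start of the B2 element, a short interspersed repeat with many copies in the mouse genome.

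The members of the GAGAUGGCU set read higher on the CCl4 arrays before scaling. miR-3473b read 87.9, 81.4 and 106 with corn oil and 319, 169 and 483 with CCl4. miR-3473a read 6.64, 5.85 and 8.04 with corn oil and 20.4, 11.4 and 35.3 with CCl4. miR-5128 was detected on no corn oil array and read 20.7, 16.5 and 28.9 on the CCl4 arrays. The groups did not overlap in miR-3473a and miR-3473b, and in all 3 CCl4 replicate 3 read highest and replicate 2 lowest among the CCl4 arrays. Without scaling, totals did not overlap for 19 of the 27 members detected on all arrays (70.4%), all of them higher with CCl4. Of all 166 miRNAs, 65.7% did not overlap and 63.3% did so with higher totals. After quantile normalization the changes of miR-3473a and miR-3473b were 0.42 and 0.42 on the log2 scale (limma adjusted p = 0.18 and 0.26). Both turned negative with each array scaled to the 75th percentile of all mouse miRNAs, and miR-3473a also with the median spot signal and without a detection filter. On every array but CCl4 replicate 3 that percentile was the 0.1 set for undetected miRNAs, so this scaling shifted replicate 3 alone. miR-3473e was detected on CCl4 replicate 3 alone, at 5.90.

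Most of the other members were dim. Totals of the 27 members detected on all arrays went from 3.98 to 120339. Next after the 4 brightest came miR-5097, miR-5109 and miR-6243, which read between 893 and 1951 on all arrays. miR-5097 did not overlap between the groups, at 1147, 1047 and 982 with corn oil and 1846, 1625 and 1951 with CCl4. miR-5109 did not overlap either, at 986, 993 and 1046 with corn oil and 1164, 1221 and 1381 with CCl4. miR-6243 did overlap, at 928, 893 and 1030 with corn oil and 926, 1039 and 1226 with CCl4. miR-5126, within Dner, a gene for a transmembrane protein of neurons, read 329, 344 and 246 with corn oil and 857, 672 and 612 with CCl4. Its groups did not overlap, and unlike the 4 brightest it read lowest on replicate 3 among the CCl4 arrays. miR-3960 showed the same order of groups, at 244, 233 and 198 with corn oil and 525, 511 and 387 with CCl4. miR-6368 read 290, 278 and 268 with corn oil and 283, 275 and 451 with CCl4, an overlap that rests on replicates 1 and 2.

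Among the dim members, miR-5622-3p, within Tpx2, a gene for a protein of the mitotic spindle, read 11.2, 11.5 and 14.5 with corn oil and 31.6, 27.2 and 37.5 with CCl4. miR-6538 read 23.8, 30.2 and 28.6 with corn oil and 55.5, 45.0 and 48.0 with CCl4. miR-5107-5p, within Cd74, which encodes the invariant chain of antigen-presenting cells, read 9.88, 5.33 and 5.25 with corn oil and 15.3, 12.7 and 24.5 with CCl4. In these 3 no CCl4 array overlapped with a corn oil array, and in miR-6538 the order of the CCl4 arrays was again unlike that of the 4 brightest. miR-5105 lay closer together, at 86.5, 83.4 and 80.7 with corn oil and 100.5, 123 and 92.5 with CCl4. The remaining 7, miR-3085-3p, miR-3092-3p, miR-3098-5p, miR-6360, miR-6378, miR-6402 and miR-6412, read between 3.98 and 33.3, with 21.3 as the highest value on a corn oil array.

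**Figure D2:**
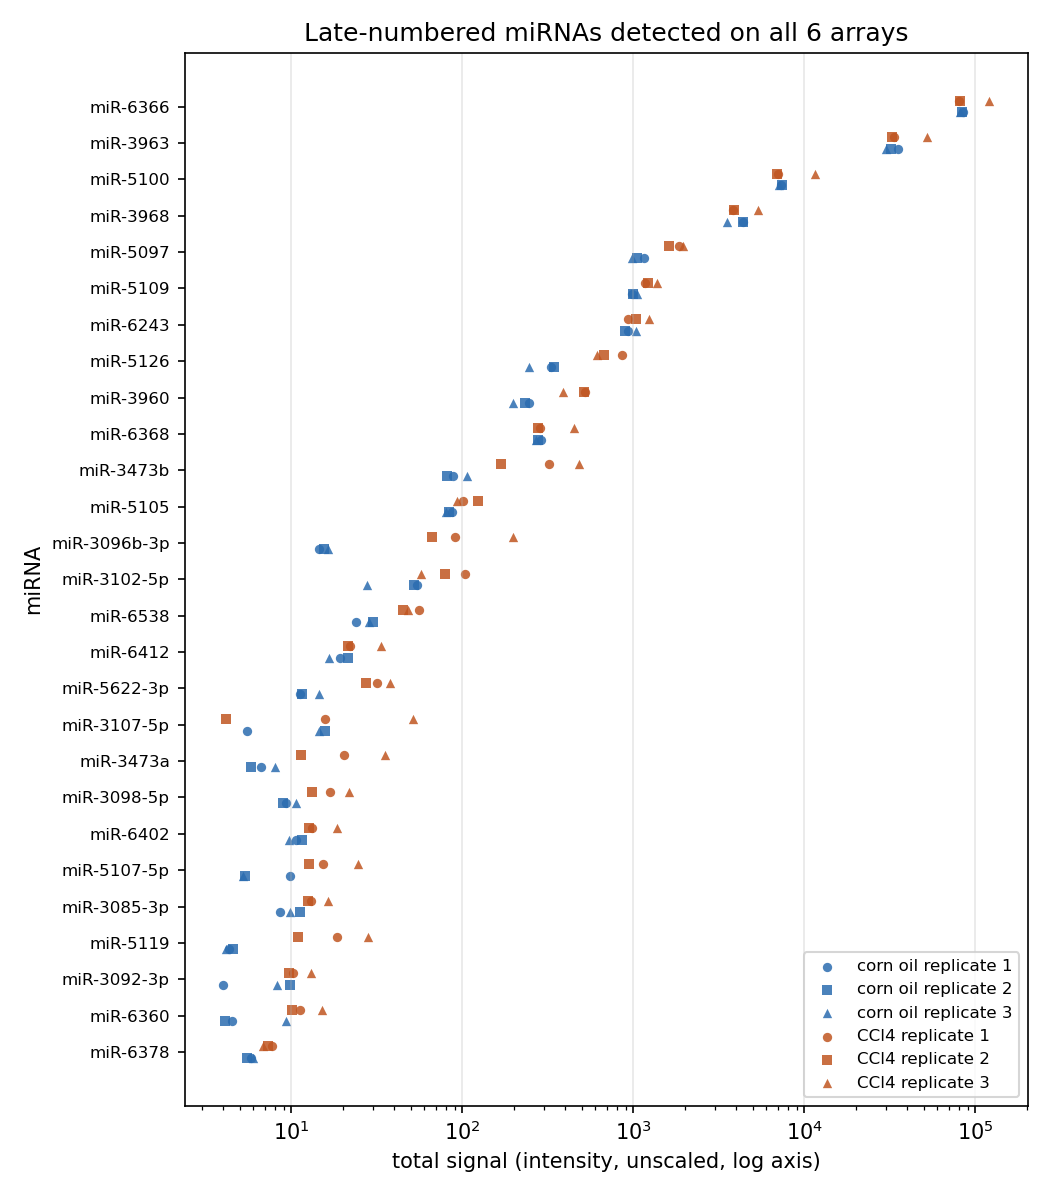
Total signal (unscaled intensity, horizontal log axis) of the 27 late-numbered miRNAs detected on all 6 arrays, 1 row for each miRNA, with blue points for the 3 corn oil arrays and orange points for the 3 CCl4 arrays. miR-6366 and miR-3963 lie apart at the top, and the orange points of miR-3096b-3p lie clear of the blue ones.

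In the comparison of CCl4 with corn oil, limma was fitted to quantile-normalized log2 totals of those 166 miRNAs. The threshold was an adjusted p (Benjamini-Hochberg) under 0.05 together with a change over 2-fold. It called 20 of the 166 (12%), 12 higher with CCl4 (7.23%) and 8 lower (4.82%). Of the 27 late-numbered miRNAs, 2 were called (7.41%), both higher with CCl4, and 0 were called lower. The count of members was also 2 at the adjusted p alone, which 13.3% of the 166 passed, and at an unadjusted p under 0.05 with the same fold, which 17.5% passed. With each array scaled to the 75th percentile of detected miRNAs, 9.64% of the 166 and 1 member were called. The median change of the 27 was -0.07 on the log2 scale, with a range from -1.11 (miR-5105) to 1.44 (miR-3096b-3p), and the median of all 166 was -0.14. Normalized signals did not overlap for 8 of the 27, against 39.2% of the 166. Without normalization all 27 changes were above 0, with a median of 0.68 against 0.99 for the 166, and with scaling to the 75th percentile 7 of the 27 were above 0. Quantile normalization sets equal ranks to equal values, so miR-6366 and miR-3963, first and second on every array, have a change of 0 by construction. The changes of miR-5100 and miR-3968 are also steps in rank. miR-5100 stood at 12.9 on every array but CCl4 replicate 3, where it stood at 13.9 with rank 3 in place of 4. miR-3968 stood at 12.2 on every corn oil array and at 11.8, 11.8 and 10.8 with CCl4. None of the 10 brightest members passed. With the median spot signal in place of the total, miR-5100 was called lower with CCl4 and miR-5119 was not called. That median pools the spots of both probes of miR-5100, 20 each, whose signals differed 7.42-fold. It can thus fall on either probe, and the call cannot be read as a change of the miRNA. The change was -0.97 for miR-6368 (limma adjusted p = 0.091), -0.75 for miR-3968 (0.17), -0.61 for miR-6243, -0.49 for miR-5109, 0.33 for miR-5100, 0.26 for miR-5126, 0.16 for miR-3960 and 0.13 for miR-5097, the last 6 at adjusted p from 0.43 to 0.91. The sign of each of these 8 turned under at least 1 other scaling or without normalization.

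miR-3096b-3p passed the test. It read 14.4, 15.6 and 16.4 with corn oil and 90.3, 66.9 and 199 with CCl4. The lowest CCl4 array lay far above the highest corn oil array. After normalization its mean log2 signal was 4.53 ± 0.12 (SD, n = 3) with corn oil and 5.97 ± 0.05 with CCl4, a change of 1.44 (standard error 0.13, limma adjusted p = 0.0026). It was called in 6 of 6 fits with 1 array left out, at adjusted p from 0.0018 to 0.034. Both of its probes read higher on every CCl4 array: the brighter one read 10.5, 11.7 and 12.4 and then 68.8, 51.4 and 153, and the dimmer one read 3.89, 3.92 and 3.95 and then 21.5, 15.5 and 46.5. Between 50 and 55% of its spots were well above background with corn oil, and 100% with CCl4. The other arm of its hairpin, miR-3096b-5p, was detected on 0 arrays. With normexp background correction and an offset of 50 added to each signal, the change was 0.75 (limma adjusted p = 0.0023), under 2-fold. An added offset makes log2 changes of dim miRNAs smaller.

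miR-3096a-5p, the entry closest to it by name, was detected on the CCl4 arrays only, at 18.8, 23.1 and 6.83. On replicates 1 and 2 at least 97.5% of its spots were well above background, and on replicate 3 it was 10%. Among the CCl4 arrays, the one that read highest for miR-3096b-3p therefore read lowest for miR-3096a-5p. The total of miR-3096a-5p on replicate 3 came from 1 probe, against 2 on replicates 1 and 2.

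miR-5119, within Cdk12, a gene for a kinase of the transcription machinery, also passed the threshold. It read 4.31, 4.55 and 4.16 with corn oil and 18.4, 10.9 and 27.9 with CCl4. Its change was 1.19 (standard error 0.24, limma adjusted p = 0.031), from 2.40 ± 0.30 to 3.59 ± 0.31 on the log2 scale. The count of probes behind these totals differed between the groups. The scanner software adds up only the probes that it accepts on an array, and it accepted 1 of the 3 probes of miR-5119 on every corn oil array and 3, 2 and 3 on the CCl4 arrays. The probe counted on all arrays read 4.31, 4.55 and 4.16 and then 10.2, 7.45 and 15.6, a smaller step than that of the totals. The remaining 2 probes were also higher on all CCl4 arrays, at 1.35 to 2.36 against 3.46 to 7.82 and at 0.58 to 1.17 against 2.15 to 4.50.

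With each miRNA summed over the probes that were counted on all 6 arrays, the change of miR-5119 was 0.58 (limma adjusted p = 0.068), and it was not called. With the brightest probe alone it was 0.63 (limma adjusted p = 0.054). The change of miR-3096b-3p was 1.47 (limma adjusted p = 0.0020) over the same probes. Between 20 and 30% of the spots of miR-5119 were well above background with corn oil, so that only a bound could be given for its fold change, and no fold followed from it. It was called in 2 of 6 fits with 1 array left out, those without CCl4 replicate 2 or 3. Without any one of the other 4 arrays it was not called, with adjusted p up to 0.15. The number of counted probes changed between arrays for 5 of the 27 members (18.5%) and for 26 of the 139 other miRNAs detected on all arrays (18.7%). In 4 of the 5 members more probes were counted in the CCl4 group, and in 22 of the 26 others.

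**Figure D3:**
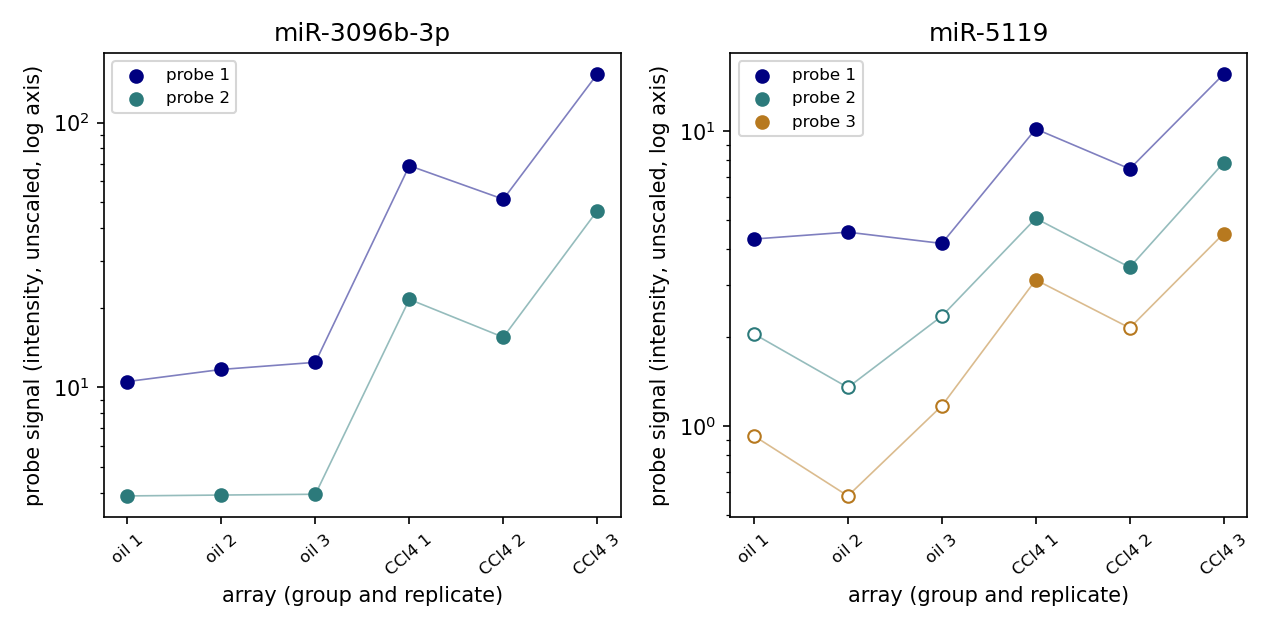
Signal of each probe of miR-3096b-3p (left) and miR-5119 (right) on the 6 arrays (unscaled intensity, vertical log axis; horizontal axis, group and replicate, with oil for corn oil). Filled points entered the total of the miRNA and open points did not, which shows 1 counted probe of miR-5119 on each corn oil array and 3, 2 and 3 on the CCl4 arrays.

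CCl4 replicate 3 stood apart from the other CCl4 arrays, with 334 detected miRNAs against 245 and 227. The late-numbered miRNAs differed less from those arrays than the others did, which is given as a description with no test. Their log2 ratio of replicate 3 to the mean of replicates 1 and 2 had a median of 0.51, and 24 of the 27 (88.9%) lay within 2-fold. The median of the other 139 was 1.59, and 34 (24.5%) lay within 2-fold. The rank correlation of replicate 3 with replicates 1 and 2 was 0.981 and 0.930 over the 27 and 0.836 and 0.833 over the 139, given as a description over miRNAs that share their arrays. The 16 conserved, widely expressed miRNAs that were listed for comparison, among them 7 of the let-7 family, had a median of 2.27, and 15 of them lay above 0. Of 6 hepatocyte miRNAs, 5 had a signal on each CCl4 array, and their median was -2.25, with 4 below 0 and miR-101a-3p at 2.12.

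**Figure D4:**
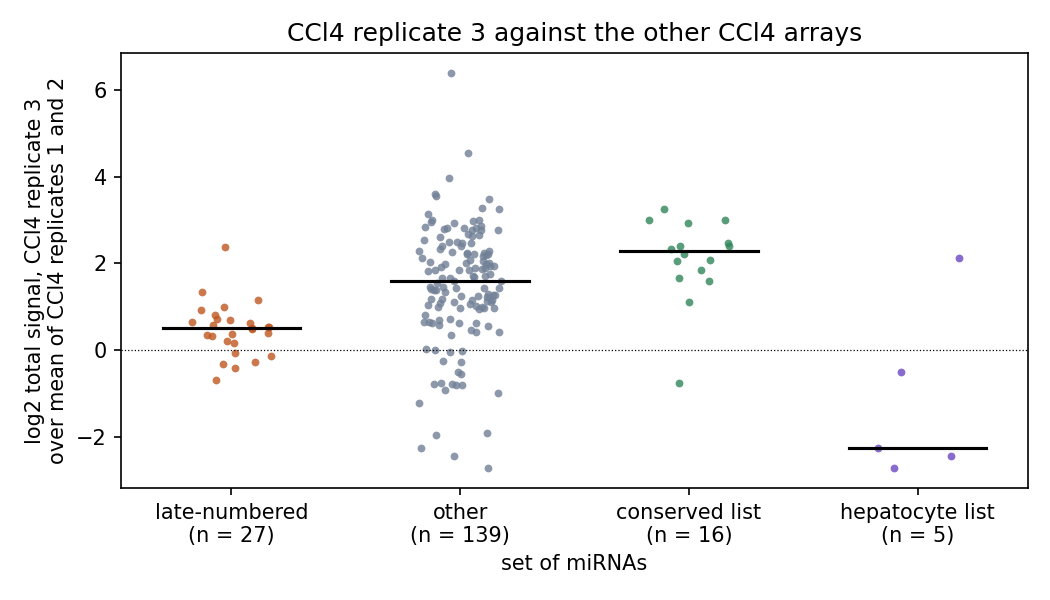
Log2 ratio of the total signal on CCl4 replicate 3 to the mean of CCl4 replicates 1 and 2 (vertical axis) for the 27 late-numbered miRNAs, the 139 others detected on all arrays and the lists of conserved and hepatocyte miRNAs, 1 point for each miRNA and a line at the median. The late-numbered miRNAs lie close together around a median of 0.51, the others around 1.59, and the list medians are 2.27 and -2.25.

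Without CCl4 replicate 3, the fit called 28 of the 166 miRNAs (16.9%) and 3 of the 27 members (11.1%). The third was miR-5126, with a change of 1.04 (limma adjusted p = 0.012) in place of 0.26. The median change of the 27 was then 0.02. miR-3096b-3p kept a change of 1.40.

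Listed markers of other liver cells also differed between the groups in unscaled signal, as did much of the array. Before scaling, 63.3% of the 166 miRNAs were higher with CCl4 with no overlap. The sum of the conserved list was 12012 to 13113 with corn oil and 15149 to 62002 with CCl4. That of the endothelial list was 563 to 677 and 821 to 3732, and that of the red cell list overlapped. The summed signal of the 6 immune cell miRNAs was between 77.7 and 91.0 with corn oil and between 346 and 475 with CCl4, and 2 of them, miR-150-5p and miR-155-5p, were undetected on every corn oil array. That of the 4 mesenchymal miRNAs on the array was between 60.1 and 97.8 and between 215 and 920. That of the hepatocyte miRNAs was between 19011 and 20917 with corn oil and 15024, 17797 and 3047 with CCl4. Most of it was miR-122-5p. Within that list miR-148a-3p overlapped between the groups, and miR-101a-3p read 64.3 to 74.6 with corn oil and 69.0, 67.3 and 297 with CCl4. The rest of the list read lower on every CCl4 array. The part of the cell makeup in the changes of miR-3096b-3p and miR-5119 was not tested, and in whole liver RNA more cells of a type and more RNA in each cell cannot be told apart.

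miR-3107-5p varied within the groups more than between them. Its gene, also named mir-486b, lies within Ank1, which encodes ankyrin of the red cell membrane. It read 5.50, 15.6 and 14.5 with corn oil and 15.8, 4.14 and 51.6 with CCl4. miR-451a, a miRNA of red cells, read 452, 728 and 680 with corn oil and 699, 302 and 2050 with CCl4, and miR-144-3p, made from the same transcript, read 13.7, 25.8 and 19.9 and then 31.0, 13.0 and 84.6. All 3 were lowest on CCl4 replicate 2, next lowest on corn oil replicate 1 and highest on CCl4 replicate 3. Its normalized change was not called.

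The probes of a miRNA differ in sequence and need not give equal signals. Of the 27 members detected on all arrays, 26 have 2 probes and 1 has 3. The brightest probe exceeded the next by less than 2-fold in 14 (51.9%), against 53 of the 139 others (38.1%). It exceeded the next by over 5-fold in 6 (22.2%), against 20 (14.4%). The median ratio was 1.90 in the members and 2.42 in the others. Of the 6 members, miR-3968 and miR-5100 had both probes well above background on all arrays, and these differed 22.0-fold and 7.42-fold. In the other 4, miR-3473a, miR-6378, miR-6402 and miR-6412, the next probe was not well above background, with at most 10% of its spots over that limit on any array, so that no ratio is given for them. The probes of miR-6366 differed 1.90-fold and those of miR-3963 by 2.66-fold, with little change between arrays. Those of miR-3960, miR-6368 and miR-3092-3p were within 1.1-fold of each other.

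**Figure D5:**
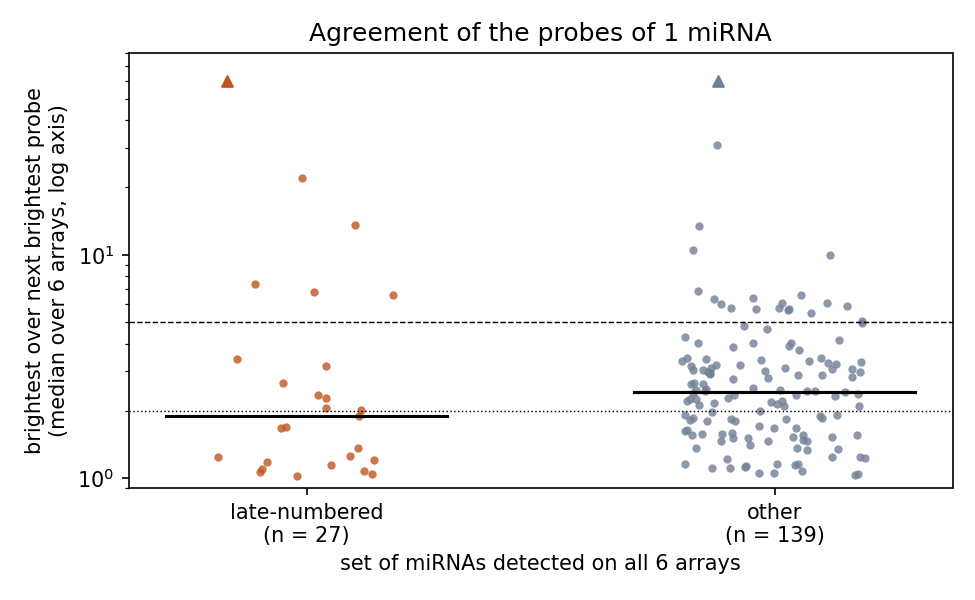
Ratio of the brightest to the next brightest probe (median over the 6 arrays, vertical log axis) for the 27 late-numbered miRNAs and the 139 other miRNAs detected on all arrays, with the medians as bars, a dotted line at 2 and a dashed line at 5. Triangles at the top stand for ratios beyond the axis or with a next probe below 0. The median is 1.90 for the late-numbered miRNAs and 2.42 for the others, and 6 of the 27 lie over 5, 4 of them with a next probe that was not well above background.

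The software also flags each spot that is well above background. Every spot carried the flag on all arrays for 14 of the 27 (51.9%), and no further member had over 50% of its spots above it on all arrays. Of the 139 others, 67 had all spots (48.2%) and 99 had over 50% (71.2%). At most 50% of the spots were above background on every array for 5 members (18.5%), miR-3092-3p, miR-3473a, miR-6360, miR-6378 and miR-6402, and for 8 of the others (5.76%). Both properties together, all spots well above background and probes within 2-fold, were met by 7 members (25.9%), miR-3102-5p, miR-3473b, miR-3960, miR-5126, miR-6366, miR-6368 and miR-6538, and by 26 of the others (18.7%).

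A hairpin that is processed as a miRNA can leave both arms. For 8 of the 27 members the array also has the other arm, and it was detected on at least 1 array for 1 of them, miR-3102-5p (12.5%). Of the 125 others with such a probe set, 49 had another arm detected (39.2%). The sets were not matched in brightness, and a dimmer arm of a dim miRNA can fall below detection. The 8 members read at most 54.5 with corn oil and at most 199 with CCl4, while the others include miRNAs as bright as miR-122-5p. miR-3102-5p, from a hairpin within Arhgef17, read 54.5, 52.4 and 27.7 with corn oil and 104, 79.5 and 57.1 with CCl4. miR-3102-5p.2-5p of this hairpin was detected on CCl4 replicates 1 and 3, at 9.72 and 16.02, and miR-3102-3p on replicate 3, at 9.37. The other arm of miR-3085-3p, miR-3092-3p, miR-3098-5p, miR-3107-5p, miR-5107-5p and miR-5622-3p was detected on no array. The brightest members have a single entry each on the array, so their arms could not be compared.

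Members were richer in G and C than the other detected miRNAs. The median GC content of the 17 members that were detected on all arrays and had a sequence was 61.9%, and that of the 117 others was 45.5%. It was over 60% in 11 of the 17 (64.7%) and in 15 of the 117 (12.8%). All 1679 sequences of the table lay between, with a median of 52.2% and 24.5% of them over 60%. miR-5126 consists of G and C alone, and miR-6538 has 94.7% of them. A run of 4 G, GGGG, stood in 7 of the 17 (41.2%), in 6 of the 117 (5.13%) and in 188 of the 1679 sequences of the table (11.2%). The 7 are miR-3092-3p, miR-3102-5p, miR-5119, miR-5126, miR-6366, miR-6368 and miR-6538, which include the brightest. Fewer than 20 bases were found in 4 of the 17 and in 3 of the 117. These are descriptions of the sequences, and their part in the signals was not tested.

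Of the 17 members that were not detected on all arrays, 4 were detected on all CCl4 arrays and no corn oil array, miR-3096a-5p, miR-5115, miR-5121 and miR-5128. A further 2, miR-3470a and miR-5112, were detected on all CCl4 arrays and 1 corn oil array. miR-3470a read 25.3, 14.2 and 25.8 on the CCl4 arrays, where at least 60% of its spots were well above background, and 4.27 on corn oil replicate 3. The brighter probe of miR-5128 had all of its spots above background on the CCl4 arrays, and read 2.49, 2.85 and 3.81 on the corn oil arrays, where it was not accepted. miR-5121, within the ribosomal protein gene Rpl13a, had 62.5, 50 and 0% of its spots above background on the CCl4 arrays. miR-5115 had 55, 22.5 and 2.5%. The bounds on their fold changes were between 0.37 and 0.90, all under 1, so no fold change is given for these 6. After each array was scaled to the 75th percentile of the miRNAs detected on all arrays, their mean log2 signal with CCl4 (2.56 to 3.85) was below the lowest corn oil signal of a miRNA with over 50% of its spots well above background.

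A further 8 members were detected on 1 or 2 CCl4 arrays and no corn oil array, and miR-3081-5p on 2 arrays of each group. miR-6236 and miR-3099-3p were detected on corn oil replicate 1 alone. miR-3099-3p read 21.7 there, with all spots of both probes well above background and probe signals of 10.7 and 10.97, and neither of its probes read over 2.59 on the other 5 arrays. At the edge of detection, members seen on 1 array read from 4.27 (miR-5103) upward, while the highest probe signal among the 243 late-numbered miRNAs that were never detected was 5.16 (miR-5130). At the edge of the numbering, the lowest-numbered member was miR-3077-5p, and miR-3072-5p, just outside, read 6.02, 4.94 and 5.56 with corn oil and 21.1, 16.9 and 25.4 with CCl4.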

How the data were processed

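Total liver RNA of 6 mice was measured on 1-color miRNA arrays. The authors deposited the scanner output, made with Feature Extraction 11.0.1.1, in which spot, probe and miRNA values are linear intensities after background subtraction, with no normalization between arrays, beside other columns with flags for detection and for spots well above background. An undetected total is set to 0.1, and no spot was saturated (0). In 1372 of 1372 pairs of a detected miRNA and an array, the total equaled a sum of some of its probe signals within 0.1%. The deposited intensities of 111 miRNAs after quantile normalization were used as an alternative only.

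Control spots were left out. Log2 totals of miRNAs detected on all 6 arrays were quantile normalized and tested in R 4.3.3 by limma 3.58.1 (lmFit, then eBayes), treatment being the only term. The fit was tested on simulated data. Shares were compared with exact two-sided permutation tests. Other steps ran in Python 3.11.15 (pandas 2.3.3, numpy 2.4.6, scipy 1.17.1, matplotlib 3.10.9).

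The text names every member detected on all arrays that was called or among the 10 brightest, the members detected on all arrays of 1 group and none of the other, the 4 marker miRNAs and the arms of named hairpins. Further members were named after their values were seen. The members and lists were chosen with earlier results of these data known. Where no array of a group had over 50% of the spots well above background, only a bound holds there, set by the lowest signal of a miRNA with over 50% of its spots above it. Alternatives covered the signal per miRNA, the scaling, the detection filter, the background correction, the deposited values, the replicate block and each array left out. Shared replicate numbers did not pair the samples: the correlations of deviations were -0.18, 0.11 and 0.03. Replicates are separate samples by the labels, and p-values measure only the spread between these 6, part of which may be technical. The array file names another genome build than the RefSeq table, so no coordinates are given. The number of arrays limits the precision.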

Additional observations from a re-analysis of the deposited data

Results flagged for a closer look

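A signal was detected for 4 members in every CCl4 liver and in none given corn oil, so they were outside the limma fit of miRNAs detected on all 6. Over all mouse miRNAs, every CCl4 array also had more detected miRNAs than any corn oil array. How many of all miRNAs had the pattern of these 4 was not counted. Detection on all arrays of at least 1 group held for 215 miRNAs, 33 of them members. Detection on all 6 arrays held for 166, 27 of them members. The mean total signal on the CCl4 arrays was 16.2 for miR-3096a-5p, 9.77 for miR-5115, 11.3 for miR-5121 and 22.0 for miR-5128. miR-3096a-5p read 18.8, 23.1 and 6.83, and miR-5115 read 16.4, 6.12 and 6.76 on CCl4 replicates 1, 2 and 3. miR-5121 read 14.4, 12.7 and 6.68, and miR-5128 read 20.7, 16.5 and 28.9. The main fit did not test the difference between the groups for these 4.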

How the results depend on the processing

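miR-3096b-3p stayed higher with CCl4 under all 18 alternatives run for it and lost its call in 3, miR-5119 in 14 of 19. Over the 10 members with a recomputed change, 195 alternatives gave 154 values on the same side of the threshold and in the same direction, 17 that lost the call, 1 that gained it (miR-5126 without CCl4 replicate 3, 1.04) and 23 of opposite sign. The cause was not tested, except where a setting itself changes what is tested. The count of 20 called miRNAs was 10 with the median spot signal, 4 with normexp on the median pixel signal (chosen after seeing the data), 12 among the 111 deposited miRNAs, 32 of 215 detected on all arrays of 1 group, 6 without a detection filter, 7 of 113 where over 50% of spots exceeded the background limit and 0 with the 75th percentile over all mouse miRNAs, most of which are undetected (limma; 4 at an unadjusted p under 0.05). On every array but CCl4 replicate 3 that 75th percentile was the undetected value of 0.1, so the setting shifted replicate 3 alone. The 2 called members became 4 of 33 with detection in 1 group, miR-3096b-3p and miR-5128 higher and miR-6378 and miR-6402 lower with CCl4. With the median spot signal they were miR-3096b-3p and miR-5100, the latter lower, as a median over the pooled spots of unlike probes. They became 1, miR-3096b-3p, with the 75th percentile over detected miRNAs, the median of the other miRNAs, the brightest probe or the same probes on all arrays (chosen after seeing the data). With the deposited values the 1 was miR-5119 (1.05, limma adjusted p = 0.043), and miR-3096b-3p was not tested there. They became 0 with no detection filter (limma, 4 at an unadjusted p), or with the 75th percentile over all miRNAs or normexp (limma, 0 at an unadjusted p in each). With over 50% of the spots above background, 14 members were tested and 0 called (limma, 0 at an unadjusted p). miR-3096b-3p and miR-5119 did not pass that filter, so they were not tested there. With the replicate block, though the numbers pair nothing, 6 miRNAs and 1 member were called. With 1 array left out at a time, limma called between 5 and 28 miRNAs and between 1 and 3 members. The change in share, CCl4 minus corn oil, was -5.15 percentage points for miR-6366, -0.87 for miR-3963 and -6.03 for all 44; as a percent of the other miRNAs' signal it was -51.9, -16.5 and -74.7, and with the median spot signal miR-3963 turned to 0.42. Without CCl4 replicate 3 the differences were -2.54, -0.065 and -1.92 percentage points. Without normalization 27 of 27 members had a change above 0, against 11 with quantile normalization. Among the 10 members with a recomputed change, those that turned sign were then miR-3968 (0.079), miR-6368 (0.23) and miR-5105 (0.33). With the 75th percentile over all miRNAs they were those of miR-3473a (-0.33), miR-3473b (-0.20), miR-3960 (-0.83), miR-5126 (-0.68) and miR-5097 (-1.13). With the 75th percentile over detected miRNAs, miR-3960 was at -0.086 and miR-5097 at -0.38, and with the median of the other miRNAs miR-3960 was at -0.31, miR-5126 at -0.15 and miR-5097 at -0.60. The median spot signal gave -0.25 for miR-3473a, 0.21 for miR-3968 and -0.52 for miR-5097, and no detection filter gave -0.37 for miR-3473a. Leaving out CCl4 replicate 1, 2 or 3 gave -0.15, -0.31 and 0.92 for miR-3960, -0.19, -0.058 and 1.04 for miR-5126 and -0.17, -0.15 and 0.66 for miR-5097. The 6 members on all CCl4 and at most 1 corn oil array had bounds of 0.37 to 0.90. The lowest detected signal as floor (chosen after seeing the data) gave 1.47 to 3.31, which that selection favors. Normexp could be run on median pixel signals only, since the arrays' columns hold no mean pixel signal. Its offset of 50 makes log2 changes of dim miRNAs smaller. Columns 1, 2 and 3 of the deposited corn oil values have the rank order of scanner arrays 2, 3 and 1, which leaves group means as they are.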
